A study of Mus musculus with 12 samples.

Results

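The somatostatin receptor genes Sstr1 to Sstr5 were followed in whole pituitary glands of adult male mice that had been injected as zygotes with a let-7f-5p mimic or with vehicle. The genes were chosen by name, as the rows of the deposited table whose gene symbol is one of the 5, and all 5 were found among 18497 named genes. The mimic group was given, at the zygote stage, a chemically stabilised let-7f-5p microRNA at a concentration that the labels call stress-relevant, with no figure (label: Str - let7f). The vehicle group was given the nuclease-free water in which the mimic had been dissolved. All animals were labelled wild type and F1 of C57BL/6J and 129S1/SvlmJ, were carried by CD1 recipient dams and were sampled as adult males, with no age in days. Each group held 6 glands, with 1 library of total RNA, depleted of ribosomal RNA, for each gland. No label says which animals shared a litter or a dam, so that p-values measure the spread between these glands as if they were independent.

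Somatostatin is a peptide of hypothalamic neurons that reaches the anterior pituitary through the portal blood and restrains the release of growth hormone and thyrotropin. Its receptors are G-protein-coupled receptors that act through inhibitory G proteins: they lower cyclic AMP, open inwardly rectifying potassium channels, close calcium channels and engage tyrosine phosphatases. Sstr2 and Sstr5 are the subtypes best known from growth hormone cells, Sstr3 is a classic receptor of the primary cilium, and Sstr1 and Sstr4 are best known from the brain. The related peptide cortistatin binds the same receptors.

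The microRNA is shown because the matches to its seed in the receptor transcripts are described further on. Its sequence is given 5′ to 3′ from RefSeq (GRCm38.p6), with the seed, bases 2 to 8, in capitals, and equals the one in the labels.
mmu-let-7f-5p: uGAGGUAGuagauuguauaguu

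The libraries held between 26378308 and 37061136 reads, recovered from the normalised counts and summed over named genes. All 7 hormone genes of the gland were present in every library, as were the 5 somatotroph, 4 lactotroph, 4 melanotroph and 4 endothelial markers, while 1 of 5 markers of hypothalamic neurons was among the genes in the table. The glands differed in markers of the intermediate and posterior lobes. The mean log2 level of the melanotroph markers Pax7, Pcsk2 and Oacyl lay between 11.31 and 13.0003 in mimic glands, and between 9.24 and 12.76 in vehicle glands. The 7 pituicyte markers of the posterior lobe lay between 8.12 and 8.64 in mimic glands, and between 5.70 and 9.33 in vehicle glands. The group means (± SD) of the melanotroph markers were 12.19 ± 0.574 in mimic and 10.99 ± 1.42 in vehicle glands. For the pituicyte markers they were 8.28 ± 0.181 in mimic and 7.45 ± 1.54 in vehicle glands. In the pituicyte markers vehicle 3 and vehicle 5 lay above every mimic gland, and the other vehicle glands lay below every mimic gland. In log2 terms both marker levels differed in mean between the groups. A fit with either as a covariate therefore cannot tell marker level and group difference apart. Vehicle 1 and vehicle 6 were the lowest on both scales, with vehicle 4 next, so that results are also given without vehicle 1 and vehicle 6.

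No somatostatin receptor gene passed the test between the groups. The limma-trend test, run on log2(normalised count + 1) and adjusted by Benjamini and Hochberg over 18390 genes with a threshold of 0.05, called 0 of the 5 receptor genes and 0 genes in all (0% of those tested). At an unadjusted p under 0.05 there were 3 of the 5, against 4.78% of all genes tested: Sstr1 and Sstr2, with values above vehicle (2.29% of all genes), and Sstr3, with values below it (2.49%). The receptor genes were chosen with earlier results of these data known, so that this count is a description and not a test of the 5 as a set. With the melanotroph markers as a covariate, the limma unadjusted p was 0.644 for Sstr1, 0.0297 for Sstr2 and 0.133 for Sstr3. The quasi-likelihood test of edgeR, run on recovered reads, called 0 genes (0%) and had 868 genes at an unadjusted p under 0.05 (4.72%), with Sstr2 and Sstr3 among them. DESeq2 called 10 genes, or 0.0644% of the 15524 genes to which it gave an adjusted p. None of them was a receptor gene, and Sstr4 was given no adjusted p. At an unadjusted p under 0.05 DESeq2 had 927 genes (5.05%), again with Sstr2 and Sstr3. The groups overlapped for all 5 genes, whereas they did not for 22 genes, or 0.12% of those tested.

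**Figure D1:**
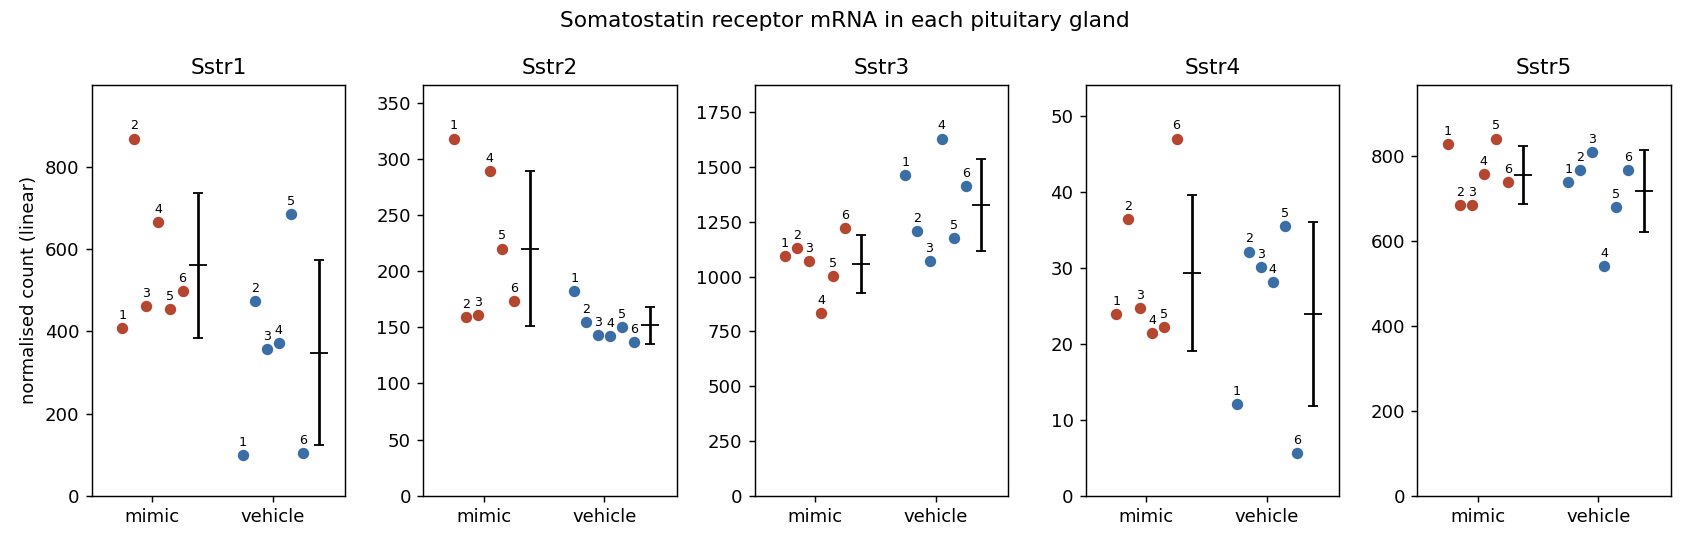
Normalised count of each receptor gene (vertical axes, linear, each from 0) in 6 mimic glands and 6 vehicle glands; numbers are replicate numbers and bars are the mean and SD. For Sstr2 the mimic values spread from 159 to 318 while the vehicle values lie between 137 and 182, and for Sstr1 and Sstr4 vehicle 1 and vehicle 6 lie lowest.

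Sstr2, the subtype through which somatostatin is best known to restrain growth hormone release, had 318, 159, 161, 289, 220 and 173 normalised counts in mimic glands 1 to 6. In vehicle glands 1 to 6 it had 182, 155, 143, 142, 151 and 137 normalised counts. Mimic 1, 4 and 5 lay above every vehicle gland, the other 3 mimic glands lay within the vehicle range, and 5 of 6 vehicle glands lay below every mimic gland. The mean was 220 ± 68.9 in mimic glands and 152 ± 16.3 in vehicle glands (SD, n = 6 each), so that the relative spread was 31.3% among mimic and 10.8% among vehicle glands. The log2 fold change was 0.48 (SE 0.17, 95% interval 0.11 to 0.86, limma unadjusted p 0.0143, adjusted p 0.976), with all 6 mimic glands above the vehicle mean. On the recovered reads the unadjusted p was 0.00918 in edgeR (adjusted p 0.985) and 0.004 in DESeq2 (adjusted p 0.643). The value stood at 0.52 without vehicle 1 and vehicle 6, at 0.49 with the pituicyte markers as a covariate and at 0.50 with the melanotroph markers as one, each within its standard error of the value without covariate.

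Sstr3, the ciliary receptor, had 1093, 1129, 1071, 834, 1002 and 1223 normalised counts in mimic glands 1 to 6. In vehicle glands 1 to 6 it had 1463, 1208, 1070, 1631, 1178 and 1415 normalised counts. Vehicle 1, 4 and 6 lay above every mimic gland, and mimic 4 and 5 lay below every vehicle gland. The mean was 1059 ± 132 in mimic glands and 1328 ± 210 in vehicle glands (SD, n = 6 each). The log2 fold change was -0.32 (SE 0.11, 95% interval -0.56 to -0.08, limma unadjusted p 0.0114, adjusted p 0.976), with all 6 mimic glands below the vehicle mean. The 3 vehicle glands that were highest in Sstr3 were those lowest in melanotroph and pituicyte markers. The log2 fold change was -0.26 without vehicle 1 and vehicle 6 (limma unadjusted p 0.0651), -0.21 with the pituicyte markers as a covariate (unadjusted p 0.0423) and -0.17 with the melanotroph markers as one (unadjusted p 0.133). In a bulk sample of the whole gland, fewer cells of a type and less RNA per cell cannot be told apart.

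The 3′ untranslated region (3′ UTR) of Sstr3 was the only one of the 5 that held letters complementary to the let-7 seed. The motif CTACCTC was searched on the sense strand of the 3′ UTR of the longest protein-coding transcript of each gene in GENCODE M21, which is on GRCm38 and was matched by symbol, whereas the authors' build was GRCm39. The annotated 3′ UTR of Sstr3 has 2251 bases and 2 matches. At least 1 match was held by 14.3% and at least 2 by 1.84% of 1139 other 3′ UTRs within 10% of that length, and by 10.3% and 1.33% of all 15465 3′ UTRs searched. The annotated 3′ UTRs of Sstr1 (413 bases), Sstr2 (662), Sstr4 (139) and Sstr5 (1290) held 0, which says only that the letters are not in these windows. The Sstr3 windows of 30 bases are shown because they are the letters that pair with the injected seed, given 5′ to 3′ as in the transcript with the match in capitals. The first is at chr15:78538645-78538674 and the second at chr15:78537328-78537357 (GRCm38, minus strand), and their matches begin at bases 600 and 1917 of the 3′ UTR.
Sstr3, first match: tcatgcccaggcctcCTACCTCttctgcag
Sstr3, second match: aaagaggaggtgaccCTACCTCaggttcag
The second match is followed by an A and so has the form called an 8mer, and the first has the form called 7mer-m8. These are matches of letters, and the mimic was given to the zygote, whereas the RNA was measured in the adult gland.

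Sstr1 had 408, 869, 463, 667, 455 and 499 normalised counts in mimic glands 1 to 6. In vehicle glands 1 to 6 it had 98, 473, 357, 372, 686 and 104 normalised counts. Vehicle 1 and vehicle 6 stood apart below all other glands, and 4 of 6 vehicle glands lay below every mimic gland, while mimic 2 lay above every vehicle gland. The mean was 560 ± 176 in mimic glands and 348 ± 225 in vehicle glands (SD, n = 6 each). The log2 fold change was 0.97 (SE 0.43, 95% interval 0.05 to 1.88, limma unadjusted p 0.0404, adjusted p 0.976). On the recovered reads edgeR gave 0.68 with an unadjusted p of 0.109. Without vehicle 1 and vehicle 6 the log2 fold change was 0.25 (limma unadjusted p 0.301), with the pituicyte markers as a covariate it was 0.44 (unadjusted p 0.149) and with the melanotroph markers as one it was 0.12 (unadjusted p 0.644).

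Sstr4 was close to the lower limit of the table, on 5 to 51 recovered reads a library. It had 23.9, 36.4, 24.7, 21.4, 22.2 and 47.0 normalised counts in mimic glands 1 to 6, against 12.0, 32.1, 30.1, 28.2, 35.5 and 5.6 in vehicle glands 1 to 6. As for Sstr1, vehicle 6 and vehicle 1 were lowest, and without them the vehicle range of 28.2 to 35.5 lay inside the mimic range. The log2 fold change was 0.45 (SE 0.39, 95% interval -0.40 to 1.29, limma unadjusted p 0.278, adjusted p 0.976). It was 0.11 without vehicle 6 alone, -0.16 without vehicle 1 and vehicle 6, 0.03 with the pituicyte markers as a covariate and -0.19 with the melanotroph markers as one, so that its direction was not settled.

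Sstr5, the other receptor that restrains growth hormone and thyrotropin release, had the smallest relative spread of the 5 among mimic glands, 8.97%, and 13.4% among vehicle glands. It had between 684 and 841 normalised counts in mimic glands (median 748), and between 541 and 809 in vehicle glands (median 753). The lowest value was that of vehicle 4, and the groups otherwise covered much the same range. The mean was 756 ± 67.8 in mimic glands and 717 ± 96.3 in vehicle glands (SD, n = 6 each). The log2 fold change was 0.08 (SE 0.10, limma unadjusted p 0.415, adjusted p 0.976). The 95% interval, unadjusted for the number of genes, ran from -0.13 to 0.29, which is a fold between 0.916 and 1.22. Without vehicle 4 the log2 fold change was 0.0032.

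**Figure D2:**
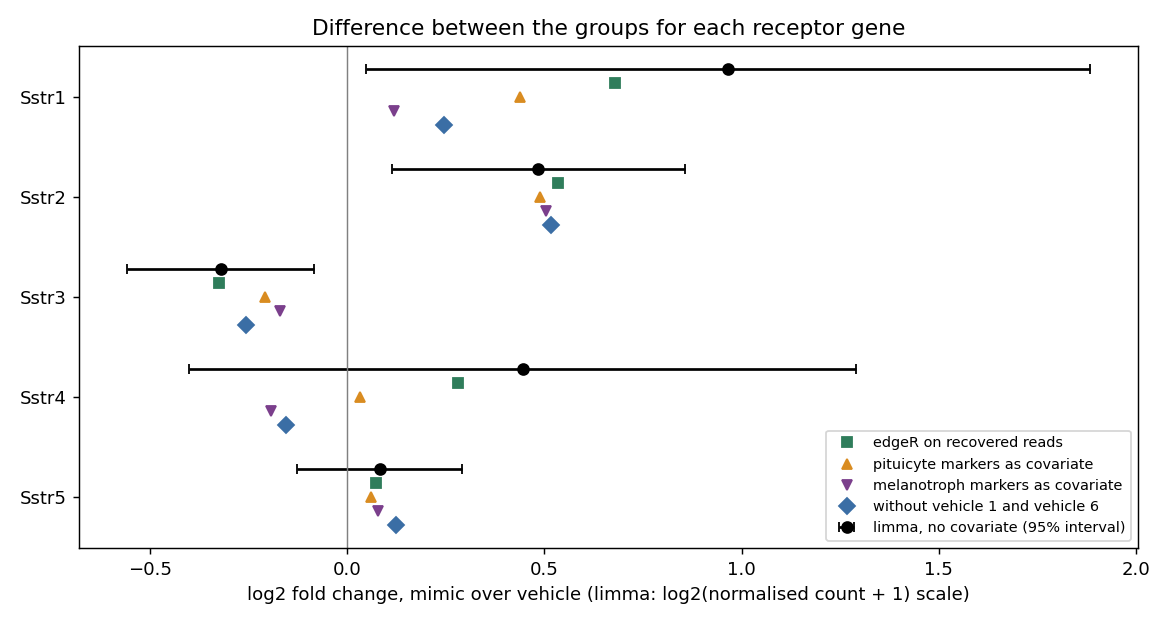
Log2 fold change of mimic over vehicle glands (horizontal axis) for each receptor gene, by limma without a covariate (black, with its 95% interval) and under 4 other settings, 6 glands a group or 4 vehicle glands where vehicle 1 and vehicle 6 are left out. Sstr2 stays between 0.48 and 0.54 in the settings drawn, whereas Sstr1 ranges from 0.97 down to 0.12 and Sstr4 crosses 0.

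To set the subtypes beside each other, each normalised count was divided by the length of the longest protein-coding transcript of the gene (2014 bases for Sstr1, 2143 for Sstr2, 4275 for Sstr3, 1424 for Sstr4 and 2733 for Sstr5). On this scale, normalised counts per kb, Sstr3 had 248 ± 30.8 in mimic glands and 311 ± 49.1 in vehicle glands (SD, n = 6 each). Sstr5 had 276 ± 24.8 per kb in mimic glands and 263 ± 35.2 in vehicle glands, and Sstr1 had 278 ± 87.3 in mimic against 173 ± 112 in vehicle glands. Sstr2 was lower, at 103 ± 32.2 per kb in mimic glands and 70.8 ± 7.61 in vehicle glands, and Sstr4 was lowest, at 20.6 ± 7.19 in mimic and 16.8 ± 8.51 in vehicle glands. Thus, with this length, Sstr3 and Sstr5 did not differ beyond the spread between glands, nor did Sstr5 and Sstr1. Sstr3 lay above Sstr5 in 3 of 6 mimic and 5 of 6 vehicle glands, and Sstr5 above Sstr1 in 4 of 6 mimic and 5 of 6 vehicle glands. Sstr1 lay above Sstr2 in all 6 mimic glands and in 4 of 6 vehicle glands, the exceptions being vehicle 1 and vehicle 6. Sstr2 lay above Sstr4 in all 12 glands with ranges that did not touch.

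Of the summed level per kb of the 5 receptors, Sstr3 held 26.9% ± 3.89 in mimic glands, against 37.8% ± 8.15 in vehicle glands (mean ± SD, n = 6 each). Sstr1 held 29.7% ± 7.06 in mimic and 19.8% ± 11.3 in vehicle glands, Sstr5 held 30.05% ± 3.68 in mimic and 31.9% ± 6.14 in vehicle glands, and Sstr2 held 11.1% ± 3.43 in mimic and 8.58% ± 1.40 in vehicle glands. Sstr4 held 2.22% ± 0.739 in mimic and 1.95% ± 0.894 in vehicle glands. In vehicle 1, 4 and 6 Sstr3 alone held 45.4%, 44.9% and 45.3%, more than in any other gland, while Sstr1 held 6.45% in vehicle 1 and 7.07% in vehicle 6. The sum itself was 926 ± 73.9 per kb in mimic and 834 ± 86.2 in vehicle glands. With coding length in place of transcript length, Sstr3 lay above Sstr5 in 11 of 12 glands and its share over all glands was 42.7% in place of 32.3%. With mean transcript length, or without division by length, Sstr3 lay above Sstr5 in all 12 glands, so that its lead depended on the length used.

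**Figure D3:**
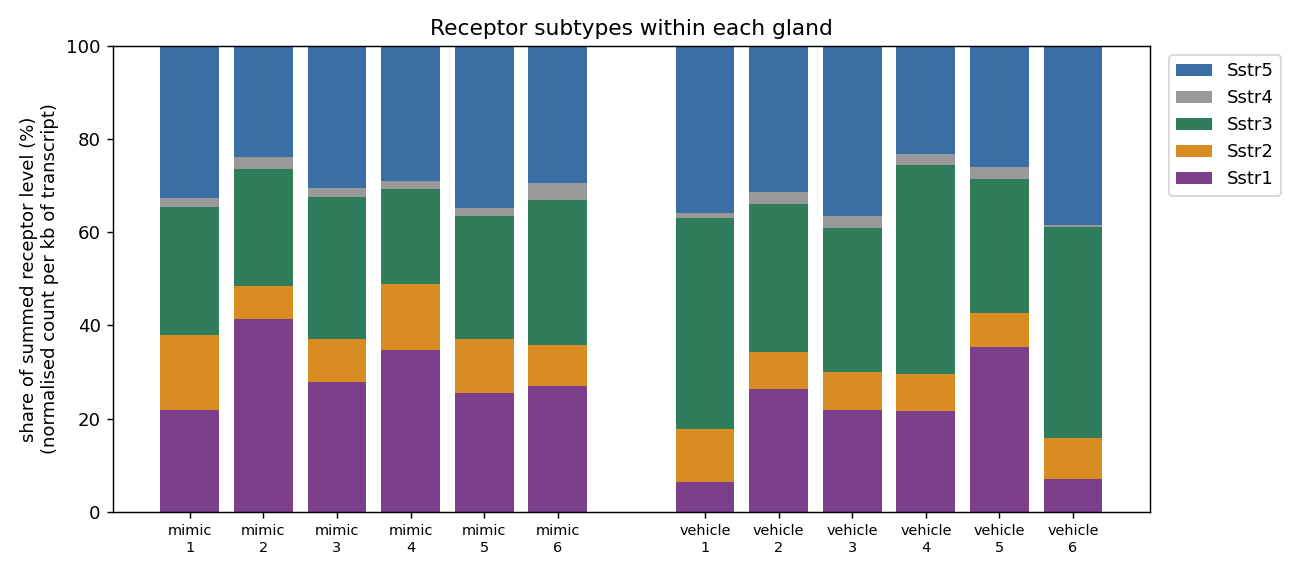
Share of each receptor gene in the summed normalised count per kb of transcript (vertical axis, percent), 1 bar for each gland, mimic 1 to 6 on the left and vehicle 1 to 6 on the right. Sstr3 takes 44.9% to 45.4% in vehicle 1, 4 and 6 and less than 21% in mimic 4, and Sstr1 is under 8% in vehicle 1 and vehicle 6 alone.

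Among all genes on the same per-kb scale, Sstr3, Sstr5 and Sstr1 were of middling abundance, and Sstr2 and Sstr4 were lower. Of the other receptors set beside them, Ghrhr and Drd2 were highest. The rest had means over all glands below those of Sstr3 and Sstr5. Ghrhr, the receptor of growth hormone releasing hormone that opposes somatostatin on growth hormone cells, had 3034 ± 332 normalised counts per kb in mimic and 3069 ± 345 in vehicle glands. Drd2, the inhibitory dopamine receptor of prolactin cells, had 1075 ± 220 per kb in mimic and 891 ± 275 in vehicle glands. Ghsr, the ghrelin receptor, had 46.2 ± 9.83 per kb in mimic and 49.4 ± 21.5 in vehicle glands, below Sstr2. Among 15616 genes with a transcript length, the mean over all glands was above that of 56.2% of genes for Sstr3, 55.2% for Sstr5, 50.01% for Sstr1, 29.8% for Sstr2 and 10.9% for Sstr4.

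The receptor genes did not vary as a unit from gland to gland. Of 10 pairs, 1 passed a permutation test over pairings of log2(normalised count + 1) values with Benjamini-Hochberg adjustment, that of Sstr1 and Sstr4 (n = 12 glands, adjusted permutation p of Pearson's r 0.0381), and it did not pass by Spearman's rho (0.64, permutation p 0.0277, adjusted p 0.277). Because vehicle 1 and vehicle 6 formed a cluster of their own for Sstr1, no r over all glands is given for this pair. Among the other 10 glands r was 0.26, so that the relation rested on vehicle 1 and vehicle 6. Sstr2 and Sstr3 had r = -0.60 (permutation p 0.0415, adjusted p 0.153) and rho = -0.49 (permutation p 0.111, adjusted p 0.37) over 12 glands. Without the 2 glands farthest in Sstr2, mimic 1 and mimic 4, r was -0.41, and it was -0.57 within mimic and 0.10 within vehicle glands.

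Sstr3 varied against the pituicyte markers and Sstr1 with the melanotroph markers. These 10 relations, each receptor gene with the melanotroph and with the pituicyte markers, were chosen after the values had been seen, and the points share library and normalisation. Sstr3 had r = -0.75 with the pituicyte markers (n = 12 glands, permutation p 0.00428, adjusted p 0.0107) and rho = -0.76 (permutation p 0.00562, adjusted p 0.0281). Without vehicle 1 and vehicle 6, the 2 glands farthest in these markers, r was -0.68, and within the groups it was -0.84 in mimic and -0.85 in vehicle glands (n = 6 each). With the melanotroph markers Sstr3 had r = -0.76 (permutation p 0.00344, adjusted p 0.0107) and rho = -0.56 (permutation p 0.0631, adjusted p 0.21), with r = -0.72 without vehicle 1 and vehicle 6, -0.55 within mimic and -0.74 within vehicle glands. Sstr1 had r = 0.91 with the melanotroph markers (n = 12 glands, permutation p 0.00023, adjusted p 0.0023) and rho = 0.83 (permutation p 0.00116, adjusted p 0.0116). Without vehicle 1 and vehicle 6 its r was 0.64, and it was 0.47 within mimic and 0.94 within vehicle glands. The r over 12 glands and the r within vehicle glands both include vehicle 1 and vehicle 6, which stood apart below all other glands in Sstr1.

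Sstr1 with the pituicyte markers and Sstr4 with either marker set had r = 0.83, 0.77 and 0.75 over all glands (adjusted permutation p 0.0107, 0.0109 and 0.015), but 0.21, 0.11 and 0.05 without vehicle 1 and vehicle 6, so that these relations rested on those glands. Their rho of 0.44, 0.49 and 0.32 did not pass (adjusted permutation p 0.31, 0.281 and 0.441). For Sstr2, r was 0.29 with the melanotroph markers and 0.23 with the pituicyte markers (rho 0.34 and 0.23). For Sstr5 r was 0.14 with the melanotroph and 0.25 with the pituicyte markers (rho -0.01 and 0.29), and the adjusted permutation p of r and of rho was at least 0.441 in all 4 relations of Sstr2 and Sstr5. Without vehicle 1 and vehicle 6, r with the melanotroph and the pituicyte markers was 0.20 and 0.11 for Sstr2, and 0.45 and 0.67 for Sstr5. Vehicle 1 and vehicle 6 were lowest in both Pax7, the transcription factor of melanotrophs, and Sstr1. Pax7 had 145 and 85.1 normalised counts there, and Sstr1 had 98 and 104. The other glands followed less closely: mimic 2, highest in Sstr1 at 869, had 1152 for Pax7, while mimic 6 had 499 and 1225.

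**Figure D4:**
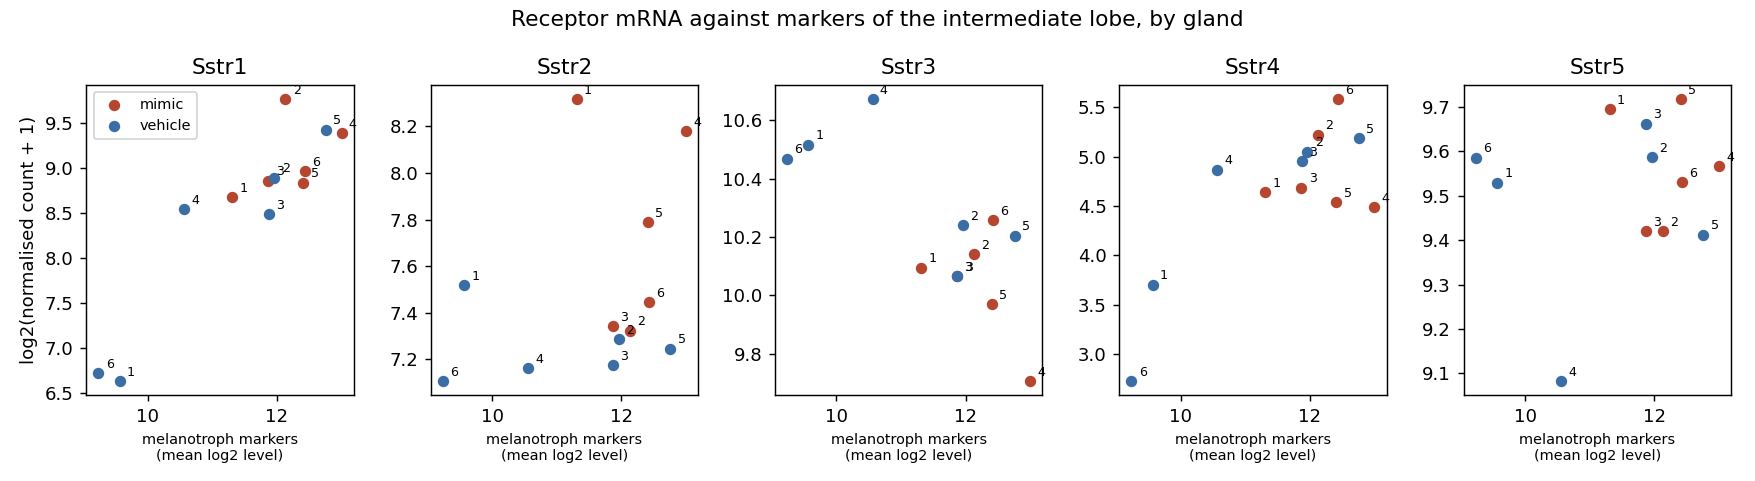
Level of each receptor gene as log2(normalised count + 1) (vertical axes) against the mean log2 level of Pax7, Pcsk2 and Oacyl (horizontal axes) in 6 mimic and 6 vehicle glands, with replicate numbers. Sstr1 climbs to the right (r = 0.91 over 12 glands, 0.64 without vehicle 1 and vehicle 6), and Sstr3 descends (r = -0.76, and -0.72 without them), with r = 0.29 for Sstr2 and 0.14 for Sstr5 over 12 glands, and 0.20 and 0.45 without them.

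The genes whose levels were most alike to Sstr1, Sstr2, Sstr3 and Sstr5 were sought among 15275 tested genes with a mean of at least 50, by Pearson's r over the 12 glands after each group had been centred on its own mean. For Sstr1 they included Scara3 (r = 0.98) and Zfp474 (0.97). For Sstr2 they were C2cd2l (0.92), Polr2b (0.88), a subunit of RNA polymerase II, and Ogfod1 (0.88). For Sstr3 they were Osbpl1a (0.93), Parp10 (0.92) and Car11 (0.91), and for Sstr5 Sgpl1 (0.87), which encodes an enzyme that breaks down sphingosine phosphate, Unc5c (0.87), a netrin receptor gene, and Kctd6 (0.86). Sstr4 lay under the mean of 50 and did not enter. These values were the highest of many and are given as a description.

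Neither ligand gene, Sst for somatostatin or Cort for cortistatin, was among the genes in the table, and their level in the gland was not analysed here. The 71 symbols listed for ligands, partners and opposing receptors include alternative names of the same gene, so that they stand for fewer genes. Of them 63 were tested and 0 were called in either direction, against 0% of all genes. Among these 63 genes, 29 had a positive and 34 a negative log2 fold change, with a median of -0.02 and a range of -0.31 to 0.33, beside a median of -0.00053 over all genes tested. Over all genes tested, 9153 had a positive and 9237 a negative value. At an unadjusted p under 0.05 there was 1 of 63, Arrb1, beside 4.78% of all genes.

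Arrb1 encodes beta-arrestin 1, which binds phosphorylated receptors and ends their coupling to G proteins. It had 1773, 2097, 1809, 2502, 2134 and 1651 normalised counts in mimic glands 1 to 6, against 1474, 1460, 1837, 1538, 1536 and 1616 in vehicle glands 1 to 6. Mimic 2, 4 and 5 lay above every vehicle gland, and vehicle 3 was the only vehicle gland that reached the mimic range. The mean was 1994 ± 313 in mimic glands, against 1577 ± 139 in vehicle glands (SD, n = 6 each), and the log2 fold change was 0.33 (SE 0.10, limma unadjusted p 0.00397, adjusted p 0.976). Of the 10 desensitisation genes tested, 7 had positive and 3 negative values, with Grk6, a receptor kinase gene, at -0.11 (SE 0.06, limma unadjusted p 0.0887).

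None of the genes that carry the signal of the receptor passed. The 5 genes of the inhibitory G-protein alpha subunits had log2 fold changes with a median of -0.05, with Gnai1 at 0.22 (SE 0.15, and 0.10 without vehicle 6) and Gnaz at -0.09 (SE 0.07). The 4 potassium channel genes had a median of 0.13, with 3 positive, among them Kcnj9 and Kcnj6 at 0.16 each (SE 0.14 each). Kcnj9 was at 0.09 without mimic 1, and Kcnj6 at 0.09 without mimic 5. The 3 phosphatase genes lay between -0.03 for Ptpn11 and 0.04, with Ptprj at 0.03. In the cyclic AMP arm, 9 of 11 genes had negative values and the median was -0.05, beside 9237 negative values among all 18390 genes tested. Of these 11 genes, 0 had a limma unadjusted p under 0.05. Among the 9 were Crem, the gene of a cyclic AMP response modulator, at -0.23 (SE 0.13, limma unadjusted p 0.111) and Prkacb, a catalytic subunit of protein kinase A, at -0.10 (SE 0.06).

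Scaffold genes of the receptors had a median of 0.04 over 8 genes, with Mpdz, whose human protein binds SSTR3, at 0.16 (SE 0.08, limma unadjusted p 0.0543) and Nherf1, whose human protein binds SSTR5, at -0.18 (SE 0.12, and -0.08 without vehicle 3). The 14 genes of receptor transport into the cilium, where Sstr3 resides, had a median of -0.01 and a range of -0.09 to 0.11, with Bbs7 at 0.11 (SE 0.07) and Bbs2 at 0.09 (SE 0.06). Ghrhr and Ghsr, the receptors that oppose somatostatin, both lay near 0, at -0.02 (SE 0.09) and -0.02 (SE 0.24). Other receptors coupled to inhibitory G proteins had a median of 0.03 over 6 genes, with Drd2 at 0.30 (SE 0.18) and Drd4 at -0.31 (SE 0.19).

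Of the hormones that somatostatin restrains, Gh was at 0.02 on the log2 scale (SE 0.13) and Tshb at -0.39 (SE 0.20, limma unadjusted p 0.0693), with Prl at -0.38 (SE 0.14, limma unadjusted p 0.0178) and an adjusted p of at least 0.976 for each. Pomc, the hormone precursor of melanotrophs and corticotrophs, had 1.14 (SE 0.51, limma unadjusted p 0.0436, adjusted p 0.976) and 0.0013 with the melanotroph markers as a covariate. Pomc is itself listed as a melanotroph and a corticotroph marker, but it was not part of the covariate, which was made of Pax7, Pcsk2 and Oacyl. Such a fit cannot tell marker level and group difference apart, and why the value of Pomc fell was not tested. With that covariate Prl was at -0.18 and Tshb at -0.17.

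**Figure D5:**
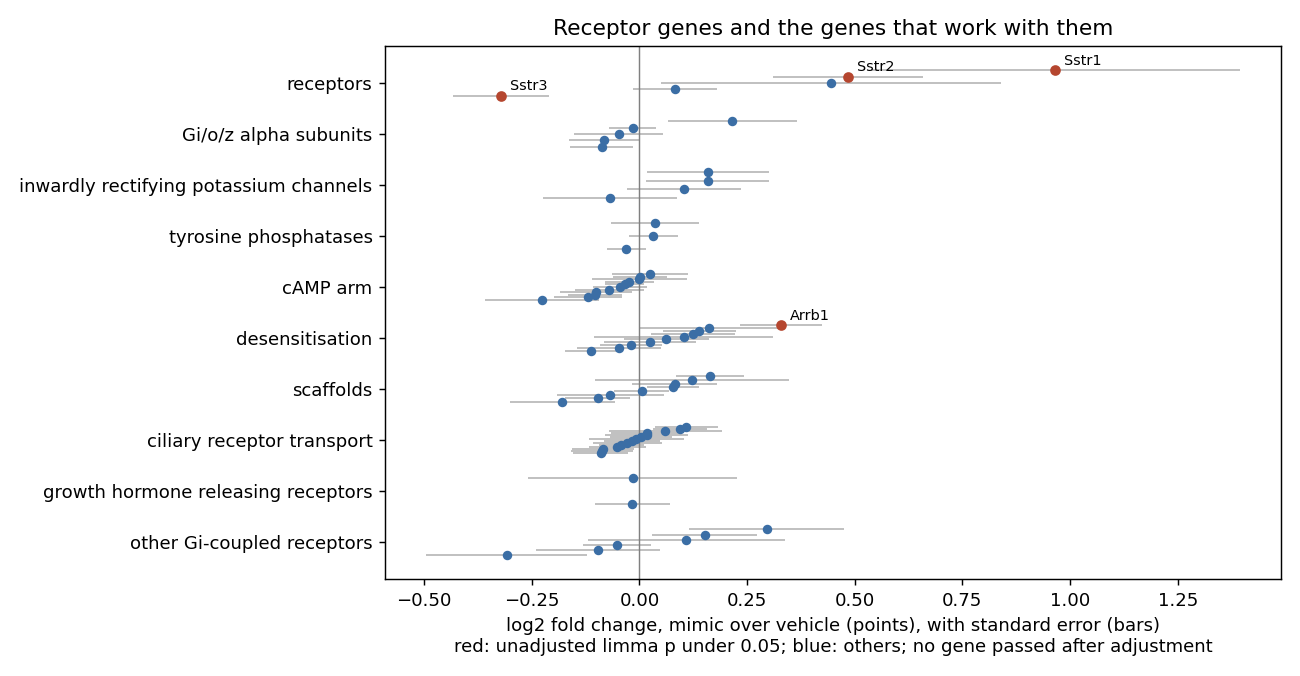
Log2 fold change of mimic over vehicle glands (horizontal axis, n = 6 each) with its standard error for the receptor genes and 63 genes that act with or against them, by group. The 4 genes with an unadjusted limma p under 0.05 are Sstr1, Sstr2, Sstr3 and Arrb1, and no gene passed after adjustment.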

How the data were processed

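Pituitary glands of 12 mice, 6 from zygotes injected with the mimic and 6 from zygotes injected with vehicle, were profiled by stranded sequencing of total RNA freed of rRNA (per the labels' protocols). The authors used Trimmomatic 0.39, kallisto 0.50.1, DESeq2 1.48.2, FastQC 0.12.1 and MultiQC 1.28 with GRCm39, per the submitters' processing notes. The deposited table gives a signal for each gene, read counts divided by a size factor per library (0.817 to 1.17), in 12 columns matched to samples by the column names in the labels. Dividing each column by its step gave whole numbers for 100% of values, within 0.001, called recovered reads. How kallisto's estimates became whole numbers, whether counting used the strand, and how low genes were removed (10 to 56 genes are at 0 in a library) is not given in the sources used here. A row without a gene name (0.0359% to 0.0567% of a library) was left out.

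The test was limma-trend (limma 3.58.1, R 4.3.3) on log2(value + 1), two-sided, without covariates, for 18390 genes with at least 10 normalised counts in at least 6 libraries. The added 1 shrinks log ratios of low values, yet for Sstr4 limma gave 0.45 and edgeR 0.28. edgeR 4.0.16 and DESeq2 1.42.0 were run on recovered reads, and all 3 were tested on simulated counts. Correlations used 100000 permutations. Transcript lengths and 3′ UTRs came from GENCODE M21 (GRCm38) by symbol, for 15616 of 18497 genes. The index the authors quantified against may hold other transcript ends, which changes levels per kb but not fold changes. Counts of genes that share reads with others depend on how kallisto divided them.

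The genes named were the receptor genes, Sst, Cort, Ghrhr, Ghsr, Gh, Prl and Tshb, in each of 12 lists those with an unadjusted p under 0.05, topped up to 2 by lowest p where there were fewer, and the 3 genes most alike to each receptor gene with a mean of at least 50. 1 gene that this rule chose is not reported here. Pax7, Pcsk2 and Oacyl as a covariate, vehicle 1 and vehicle 6 left out together, and the relations with lobe markers were added after seeing the data. The receptor genes and the lists were chosen with earlier results of these data known. Same-numbered glands of the 2 groups had correlations of their deviations between -0.179 and 0.14, and the labels tie no number to a litter. The glands were therefore not treated as paired in the main test, and whether same-numbered glands shared a dam or a day is not known.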

Additional observations from a re-analysis of the deposited data

Results flagged for a closer look

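A gland is listed here where it lay unusually far from the next gland of its group, relative to the whole range of that group. This held for 5 of 64 group values examined, where chance gives about 3.2. Sstr2 held 11.3% of the summed receptor level in vehicle 1, against 7.32% to 8.72% in the other vehicle glands. Tshb was low in mimic 4, at 3816 normalised counts against 5863 to 6697 in the other mimic glands. Kcnj9 was high in vehicle 2, at 217.5 normalised counts against 144 to 171. In vehicle 3, Ptpn11 was low at 6773 (7466 to 7832 in the other vehicle glands) and Nherf1 was high at 674 (425 to 506).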

How the results depend on the processing

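In every setting tried, leaving out each gland included, 0 of the 5 receptor genes and 0 of the 63 pathway genes were called, and the count over all genes was 0 except for 10 with DESeq2 on recovered reads. With the replicate number as a block (replicate block), the log2 fold changes were 0.97, 0.48, -0.32, 0.45 and 0.08 for Sstr1 to Sstr5 and 0 genes were called. Each number occurs once in each group, so this setting could not change the fold changes. Its limma unadjusted p-values were 0.0148, 0.00871, 0.0229, 0.322 and 0.459 for Sstr1 to Sstr5. The only receptor gene that changed direction was Sstr4, at -0.1935 with the melanotroph covariate and -0.1555 without vehicle 1 and vehicle 6. With a minimum of 50 Sstr4 was not tested, and DESeq2 gave it no adjusted p, so that it could not be called in these 2 settings. Leaving out each gland gave 0.6692 to 1.2279 for Sstr1, 0.3676 to 0.5666 for Sstr2, -0.3805 to -0.2546 for Sstr3, 0.107 to 0.6004 for Sstr4 and 0.0032 to 0.1192 for Sstr5. In the other settings these were 0.1194 to 0.9886 for Sstr1, 0.3986 to 0.5371 for Sstr2, -0.3254 to -0.1693 for Sstr3 and 0.0521 to 0.1225 for Sstr5.

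Other values near 0 changed sign. Ghsr was at 0.0902 with library weights, 0.1463 with the pituicyte covariate, 0.2476 with the melanotroph covariate and 0.0871 without vehicle 1 and 6, and between -0.1598 and 0.1437 without single glands. Ghrhr was at 0.0426, 0.0527 and 0.0442 in the last 3 of these settings, and between -0.0631 and 0.0304 without single glands. Gh was at -0.0004 with edgeR and -0.0015 with DESeq2, and between -0.0503 and 0.0987 without single glands. With the melanotroph covariate Gnai1 was at -0.0294 and Drd2 at -0.0704. The share of Sstr3 was 42.6745% with coding length, 43.6951% with mean transcript length and 46.0507% without length. That of Sstr4 was 1.0421% with coding length and 1.0137% without length, and that of Sstr5 24.3214% with mean transcript length, as the lengths themselves set. With each group centred, r was -0.1814 for Sstr1 and Sstr2 and -0.2453 for Sstr2 and Sstr4, which lay between -0.3878 and 0.0577 without single glands. For Sstr1 and Sstr4, r lay between 0.7343 and 0.8842 without single glands, and the test did not pass in 9 of 12 cases. Where not stated, the cause was not tested. Sstr4 rested on the fewest reads of the receptor genes, 5 to 51 a library.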
